A study of Mus musculus with 38 samples.

Results

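The alternative subunits of the SWI/SNF chromatin remodelling complex were followed in mouse embryonic stem cells given the SWI/SNF inhibitor BRM014. The 10 genes were Smarca2, Smarcc1, Smarcc2, Smarcd1, Smarcd2, Smarcd3, Dpf1, Dpf3, Arid1a and Arid1b. They were chosen by symbol as paralogs that take each other's place in the complex. Of the 10 genes, 9 had counts above 0, out of 22408 genes with counts and 55385 genes in all. Arid1a was listed at 0 in all 38 libraries, as was Smarca4. Each of these genes overlaps another annotated gene on its own strand, and nothing can be said here of the expression of either.

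SWI/SNF complexes use the energy of ATP, split by BRG1 (Smarca4) or BRM (Smarca2), to move or evict nucleosomes. Most positions around the ATPase are filled by one member of a small gene family. Smarcc1 and Smarcc2 encode the scaffold proteins BAF155 and BAF170, and the Smarcd genes encode the BAF60 adaptors that contact transcription factors. Arid1a and Arid1b encode the large subunits that define canonical BAF complexes, and the Dpf genes encode BAF45 proteins that bind modified histone tails. The mouse embryonic stem cell complex is known for BRG1 and BAF155 rather than BRM and BAF170. Smarcd3 (BAF60c) is best known from heart and muscle, and Dpf1 and Dpf3 (BAF45b and BAF45c) are best known from neurons, with Dpf3 also in heart and muscle.

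The cells were of 129S6/SvEvTac background and grew on gelatin in serum and LIF. BRM014, which blocks the ATPases of BRG1 and BRM, and an analog labelled inactive were both given at 10 µM in DMSO. The first batch (number 2450 in the labels) held 26 libraries of wild type cells in 13 groups of 2. BRM014 was present for 30 min, 1 h, 3 h, 6 h or 24 h. In 2 groups it was washed out after 1 h and cells were taken 30 min or 1 h later, and in 2 it was washed out after 24 h and cells were taken 6 h or 24 h later. The inactive analog and DMSO were each present for 1 h or 24 h. The second batch (number 2457) held 12 libraries in 6 groups of 2, with BRM014 or DMSO for 24 h in lines labelled Ino80ko, Snf2hko and wild type. The labels give no dose for the washouts, no DMSO group at 30 min, 3 h or 6 h and no washed DMSO group. They do not say whether a knockout line is 1 clone or how it was made, and the growth protocol describes wild type cells. Replicates are called biological with no word on cultures or days, so p-values measure the spread between these libraries, which may be partly technical.

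Totals ran from 19349695 to 23053021 counts per library in the first batch and from 21948010 to 44453556 in the second. No replicate pair was identical, and all 19 pairs differed by more than counting noise. Of 11 embryonic stem cell markers, 10 had counts, summing to 6143 to 8705 CPM in every library, while Sox2 was listed at 0. CPM are counts divided by library size with edgeR's TMM scaling. Ino80 had 128 and 122 CPM in Ino80ko cells with DMSO, against 174 and 176 CPM in wild type cells with DMSO (log2 fold change -0.48, edgeR adjusted p = 1.44e-05). Ino80 was therefore still counted in the line labelled for it, and it was as low in Snf2hko cells (130 and 125 CPM). Smarca5, which encodes Snf2h, was listed at 0 throughout, so that label could not be checked.

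The members differed widely in level. Per kilobase of exon, the median over 38 libraries was 60.5 CPM for Smarcc1, 40.9 for Smarcd1 and 28.8 for Smarcd2. Arid1b followed at 6.45 CPM per kilobase, Smarcc2 at 6.07, Dpf1 at 3.82, Smarcd3 at 2.72 and Smarca2 at 0.948. Dpf3 was the lowest at 0.0939 CPM per kilobase, with 1 to 60 counts in a library. None of the 9 genes overlaps another annotated gene on its own strand.

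The stretch upstream of the RefSeq start is shown for the members on which the results below turn: the 3 genes of the Smarcd position, of which Smarcd3 changed most with BRM014, both Smarcc genes and Smarca2. The sequences are from RefSeq (build GRCm38.p6), 5′ to 3′ on the gene's strand, and each is the longest run of the 250 bases before the start that holds no annotated exon. Capitals mark matches to 4 motifs searched on both strands: the GC box, whose letters are GGGCGG, the CCAAT box, the TATA box with the letters TATAAA, and an ETS motif with the letters CCGGAAG.
Smarcd3, chr5:24602013-24602252, minus strand: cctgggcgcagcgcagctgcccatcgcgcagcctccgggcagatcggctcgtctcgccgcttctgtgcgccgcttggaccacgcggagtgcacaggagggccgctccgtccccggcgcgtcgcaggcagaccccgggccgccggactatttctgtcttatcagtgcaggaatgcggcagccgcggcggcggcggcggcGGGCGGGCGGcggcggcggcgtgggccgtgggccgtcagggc
Smarcd1, chr15:99702037-99702128, plus strand: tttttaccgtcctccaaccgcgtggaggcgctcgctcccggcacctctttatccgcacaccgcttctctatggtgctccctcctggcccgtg
Smarcd2, chr11:106267800-106267882, minus strand: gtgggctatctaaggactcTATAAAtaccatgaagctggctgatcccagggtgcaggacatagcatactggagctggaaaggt
Smarcc2, chr10:128458986-128459235, plus strand: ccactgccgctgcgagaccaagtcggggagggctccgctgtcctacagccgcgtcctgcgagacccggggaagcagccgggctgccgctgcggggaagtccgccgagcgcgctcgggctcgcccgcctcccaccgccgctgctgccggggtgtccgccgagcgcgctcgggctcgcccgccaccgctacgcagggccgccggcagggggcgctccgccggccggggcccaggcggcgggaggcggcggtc
Smarcc1, chr9:110131774-110131979, plus strand: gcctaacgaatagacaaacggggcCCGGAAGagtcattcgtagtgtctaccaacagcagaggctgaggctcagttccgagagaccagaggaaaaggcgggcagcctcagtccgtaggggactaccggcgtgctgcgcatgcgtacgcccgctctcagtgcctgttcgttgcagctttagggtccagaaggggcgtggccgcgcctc
Smarca2, chr19:26604910-26605049, plus strand: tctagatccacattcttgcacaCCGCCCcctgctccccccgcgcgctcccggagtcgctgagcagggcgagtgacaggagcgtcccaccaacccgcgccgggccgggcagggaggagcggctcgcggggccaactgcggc

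The Smarcd3 stretch held 38 CpG dinucleotides, more than 98.5% of the same stretch in 32851 RefSeq promoters, and 2 overlapping GC boxes, a motif found in 31.3% of them. Smarcc2 held 40 CpG in 250 bases, more than 98.7% of promoters, and none of the 4 motifs. The Smarcd2 stretch of 83 bases held 0 CpG and 1 TATA box, found in 4.49% of promoters. Smarcc1 held 17 CpG and 1 ETS motif (4.28% of promoters), Smarca2 held 16 CpG and 1 GC box (15.3%), and Smarcd1 held 9 CpG and no motif. For every gene shown except Smarcc2, annotated transcripts start further upstream, so the RefSeq start lies inside the annotated gene. A match is a description of the letters, and the Smarcd3 stretch differs from those of Smarcd1 and Smarcd2 in length as well as in content.

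After 24 h of BRM014 in wild type cells, the largest change among the 8 members tested over both batches was the fall of Smarcd3 (chr5:24590818-24624411, minus strand). It had 5.08, 5.84, 7.25 and 5.82 CPM with BRM014, against 22.0, 17.3, 17.6 and 14.6 CPM with DMSO, the first 2 values of each being the first batch. Every BRM014 library lay below every DMSO library. The means were 5.997 ± 0.907 and 17.9 ± 3.09 CPM (SD, n = 4 each), a log2 fold change of -1.55 ± 0.14 (SE, edgeR adjusted p = 2.31e-07), or 2.92-fold lower. The fall was -1.85 ± 0.17 in the first batch alone and -1.28 ± 0.13 in the second.

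The other genes of the same position fell less. Smarcd2 (BAF60b, chr11:106263179-106272972) had 85.3, 89.3, 84.0 and 80.5 CPM with BRM014, against 106, 98.2, 109 and 91.4 CPM with DMSO, groups that do not overlap (-0.25 ± 0.07, adjusted p = 0.0053). Smarcd1 (BAF60a, chr15:99702129-99713991) averaged 158 ± 5.74 CPM with BRM014 and 189 ± 21.3 CPM with DMSO, with overlapping libraries (-0.25 ± 0.07, adjusted p = 0.00522). Fitted on the first batch's own 4 libraries, neither was called (Smarcd1 -0.15, adjusted p = 0.228, and Smarcd2 -0.23, adjusted p = 0.0587).

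Both Smarcc2 and Arid1b rose. Smarcc2, the scaffold best known from neural complexes (chr10:128459248-128490482), had 50.6, 47.5, 38.8 and 40.3 CPM with BRM014, against 35.1, 31.9, 33.0 and 30.4 CPM with DMSO. All 4 BRM014 libraries lay above all 4 DMSO libraries (0.43 ± 0.08, adjusted p = 0.00019, 1.35-fold). Arid1b (chr17:4994332-5347656) had 112, 125, 103 and 97.2 CPM with BRM014, against 81.2, 99.1, 77.0 and 77.2 CPM with DMSO. The Arid1b groups overlapped at 1 library, DMSO replicate 2 of the first batch (0.39 ± 0.07, adjusted p = 0.000213, 1.31-fold).

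Smarca2, Smarcc1 and Dpf1 did not pass the test. Smarca2 (BRM, chr19:26605050-26778322) averaged 11.8 ± 1.96 CPM with BRM014 and 12.4 ± 2.45 CPM with DMSO, a log2 difference of -0.08 (95% interval -0.31 to 0.16). Smarcc1 (chr9:110117708-110240178) averaged 498 ± 27.6 and 496 ± 73.1 CPM (0.02, interval -0.16 to 0.20), and Dpf1 (chr7:29303951-29318243) averaged 21.0 ± 2.29 and 22.0 ± 2.36 CPM (-0.06, interval -0.26 to 0.13). For Smarcc1 the pooled value joined unlike batches. It had 504 and 534 CPM with BRM014 against 403 and 470 CPM with DMSO in the first batch (0.25, adjusted p = 0.0208), and 479 and 473 CPM against 554 and 555 CPM in the second (-0.22, adjusted p = 0.0615). The second-batch fall was called in a fit of those 4 libraries alone (-0.21, adjusted p = 0.0166) and without the filter on low counts (-0.23, adjusted p = 0.007). In a fit of its own 4 libraries alone, the first-batch rise was not called (0.25, adjusted p = 0.0562). The first-batch rise was not called without BRM014 24 h replicate 2 (0.21, adjusted p = 0.133) or DMSO 24 h replicate 1 (0.14, adjusted p = 0.265). The effect in the second batch differed from that in the first by -0.45 ± 0.11 (interaction, adjusted p = 0.0303), 1 of 8 members beside 3.46% of genes. That difference was lost in 6 of 8 fits without 1 library, those without any of the 4 BRM014 replicates or DMSO replicates 3 and 4 (adjusted p = 0.0638 to 0.217).

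In counts, 2 members rose and 3 fell of the 8 tested at 24 h, where 49.6% of 11787 genes tested were called (24.8% higher and 24.8% lower). A share of that size among 8 genes is near the background. The members' median log2 fold change was -0.07 and their median absolute change 0.25, against 0.00 and 0.28 over all genes. Within the batches, 5 of 9 members were called in the first (45.8% of genes) and 6 of 9 in the second (42.3%). Dpf3 (chr12:83213745-83487716, minus strand) was tested only within batches, with 3 counts in the BRM014 libraries against 12 in the DMSO libraries of the first and 9 against 42 in the second. Its ratios were 0.254 (95% interval 0.0460 to 0.941) and 0.281 (0.120 to 0.586), intervals that cover counting error only. In the second batch the calls of Dpf3 (adjusted p = 0.0152), Smarcd2 (0.0078) and Smarcc2 (0.00555) rested on single libraries. Dpf3 did not pass without DMSO replicate 3 (0.134) or BRM014 replicate 3 (0.161), Smarcd2 without DMSO replicate 3 (0.214) or BRM014 replicate 4 (0.0844), and Smarcc2 without DMSO replicate 4 (0.0575). In the first batch Smarcd2 (0.00718) was lost without BRM014 replicate 1 (0.0616) or DMSO replicate 1 (0.0922).

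**Figure D1:**
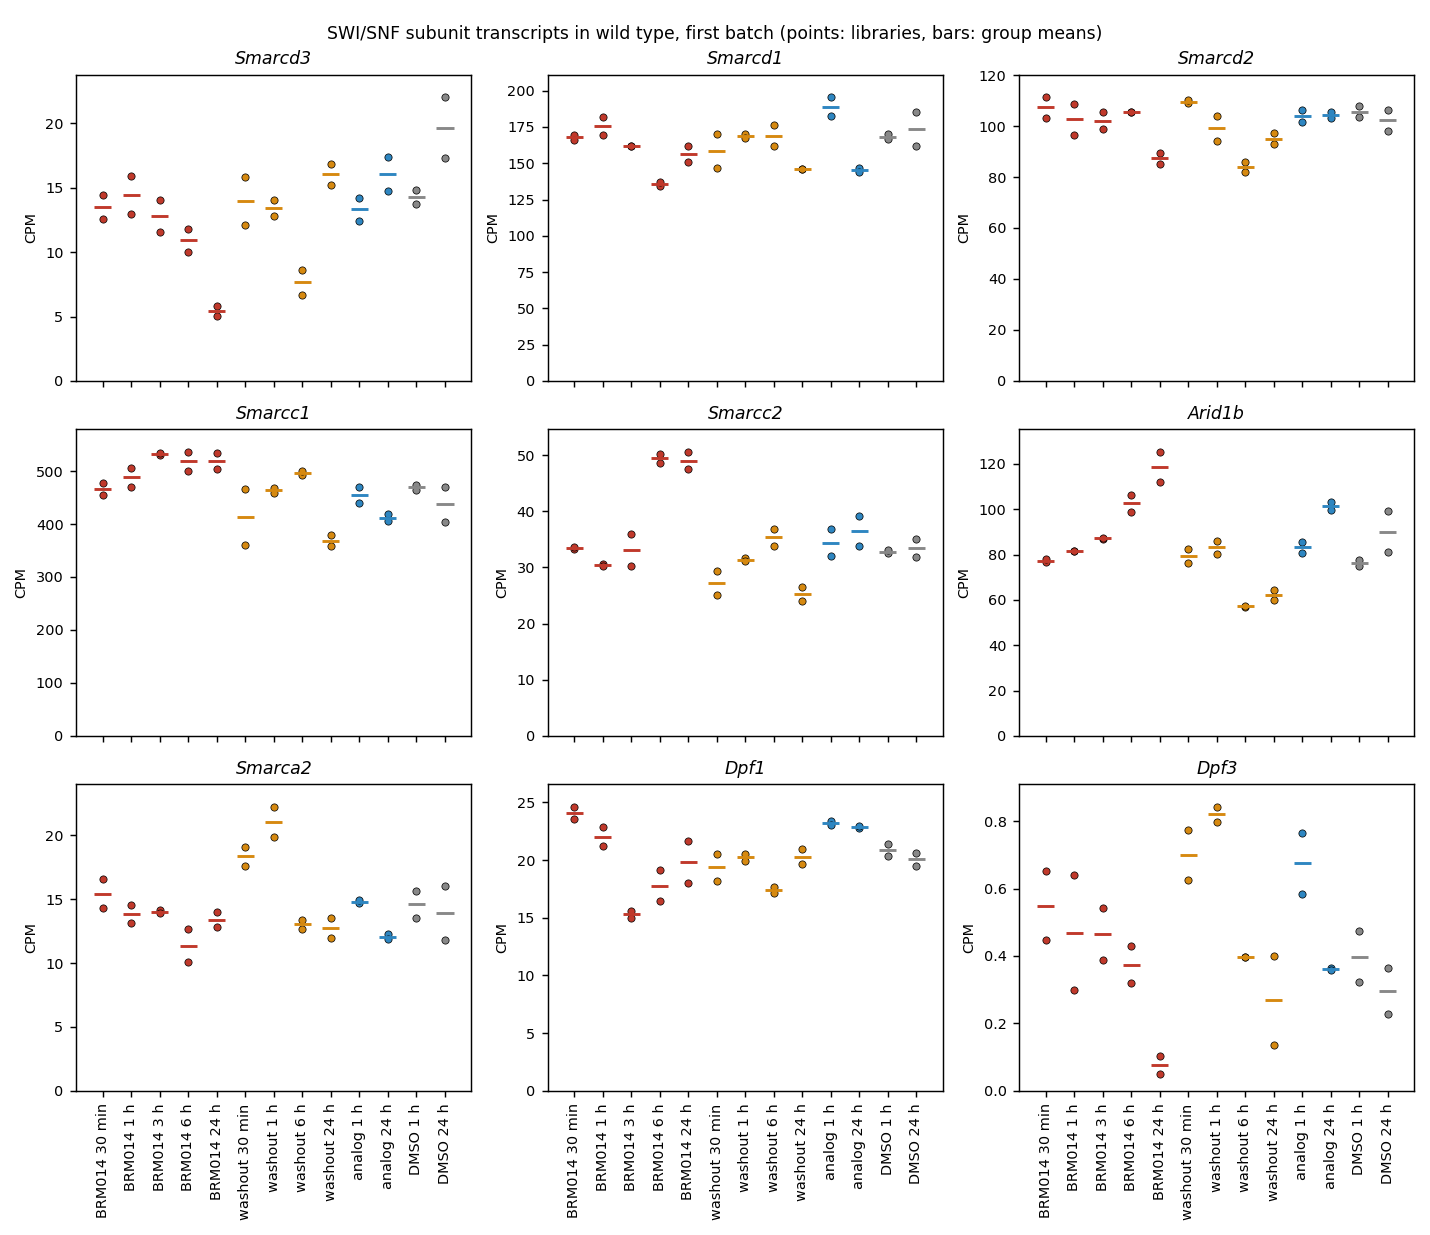
CPM (y axis, from 0) of the 9 members with counts in the 26 wild type libraries of the first batch. Points are libraries and bars are group means of 2. Smarcd3 is lowest at 24 h of BRM014 (5.08 and 5.84 CPM), Smarcc2 is highest at 6 h and 24 h of BRM014, and Arid1b is lowest 6 h after washout (57.0 and 57.4 CPM).

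Over the time course no member passed the test within the first hour. At 30 min of BRM014, 0 of 9 members were called against DMSO 1 h and 1 had an unadjusted p under 0.05 (Dpf1, 0.21), where 0% of genes were called. At 1 h the count was 0 of 9, with 0 at an unadjusted p under 0.05 and 0.599% of genes called. DESeq2 also called none at either time.

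At 3 h 3 members were called against the mean of DMSO 1 h and 24 h, beside 31.2% of all genes. Dpf1 had 15.6 and 15.0 CPM with BRM014, against 20.3 and 21.4 CPM with DMSO 1 h and 19.5 and 20.6 CPM with DMSO 24 h. Both BRM014 libraries lay below all 4 DMSO libraries (-0.41 ± 0.09, adjusted p = 0.000829). Of 10 neural markers 5 had counts, and Sox1, Neurod1, Tubb3, Map2 and Rbfox3 were listed at 0. They summed to 39.0 to 39.5 CPM at 3 h of BRM014, against 53.4 to 55.5 CPM with DMSO 1 h and 60.7 to 61.1 CPM with DMSO 24 h, and their part in the Dpf1 result was not tested. Smarcd3 had 14.07 and 11.55 CPM, which overlapped DMSO 1 h (14.8 and 13.8 CPM) and lay below DMSO 24 h (-0.39 ± 0.13, adjusted p = 0.0269). Against DMSO 1 h alone the Smarcd3 difference was -0.16 (adjusted p = 0.492), and it was not called without BRM014 3 h replicate 2 (-0.25, adjusted p = 0.341), DMSO 24 h replicate 1 (-0.29, adjusted p = 0.102) or DMSO 1 h replicate 1 (-0.36, adjusted p = 0.0722). Smarcc1 had 531 and 535 CPM, above the 4 DMSO libraries at 403 to 474 CPM (0.24 ± 0.07, adjusted p = 0.0158). That call was lost against DMSO 1 h alone (0.18, adjusted p = 0.139) and without either BRM014 3 h replicate (adjusted p = 0.0878 without replicate 1 and 0.0845 without replicate 2) or DMSO 24 h replicate 1 (0.0588).

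Smarcc2 was first called at 6 h. It had 33.3 and 33.6 CPM at 30 min, 30.7 and 30.3 at 1 h, 36.0 and 30.3 at 3 h, 48.7 and 50.3 at 6 h and 50.6 and 47.5 at 24 h, against 32.6 and 33.1 CPM with DMSO 1 h and 35.1 and 31.9 CPM with DMSO 24 h. Both libraries stood above every DMSO library at 6 h and at 24 h but not at the earlier times, and the 6 h and 24 h groups overlapped each other. The 6 h change was 0.60 ± 0.08 (adjusted p = 7.26e-07).

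Arid1b had 76.6 and 77.8 CPM at 30 min, 81.6 and 81.3 at 1 h, 86.9 and 87.3 at 3 h, 98.8 and 106.5 at 6 h and 112 and 125 at 24 h of BRM014, against 75.1 and 77.5 CPM with DMSO 1 h and 81.2 and 99.1 CPM with DMSO 24 h. The 5 BRM014 groups did not overlap each other. The 6 h value reached 0.33 ± 0.07 (adjusted p = 0.000137), with 1 of its libraries just under DMSO 24 h replicate 2. The 2 DMSO times also differed from each other. Between 24 h and 1 h of DMSO, Arid1b differed by 0.23 (adjusted p = 0.0375) and Smarcd3 by 0.46 (adjusted p = 0.0308), 2 of 9 members beside 18.5% of genes. Neither call survived leaving out a DMSO 1 h replicate (Arid1b adjusted p = 0.199 without replicate 1 and 0.0923 without replicate 2, Smarcd3 0.0921 and 0.183). Without DMSO 24 h replicate 1 Smarcd3 was at 0.26 (adjusted p = 0.297), and without DMSO 24 h replicate 2 Arid1b was at 0.09 (adjusted p = 0.591).

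Smarcd3 was lowest at the last time, with 12.6 and 14.4 CPM at 30 min, 15.9 and 12.9 at 1 h, 14.07 and 11.55 at 3 h, 10.0 and 11.8 at 6 h and 5.08 and 5.84 at 24 h. The 24 h libraries stood apart from all others, and the 6 h libraries lay below both DMSO groups. The 6 h change was -0.60 ± 0.14 (adjusted p = 0.000601) against the 2 DMSO times and -0.37 (adjusted p = 0.0579) against DMSO 1 h alone.

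Of the 9 members, 3 rose and 3 fell at 6 h, where 48.4% of genes were called (24.9% higher and 23.5% lower). Smarcd1 had 135 and 137 CPM at 6 h, its lowest group of the first batch, against 162 to 185 CPM in the 4 DMSO libraries (-0.31 ± 0.06, adjusted p = 0.000145). Smarcc1 had 536 and 501 CPM (0.22, adjusted p = 0.0168) and Smarca2 had 10.1 and 12.7 CPM (-0.30, adjusted p = 0.0351). The Smarcc1 call was lost without BRM014 6 h replicate 1 (0.17, adjusted p = 0.175) or DMSO 24 h replicate 1 (0.17, adjusted p = 0.067) and against DMSO 1 h alone (0.16, adjusted p = 0.137). The Smarca2 call was lost without BRM014 6 h replicate 1 (-0.14, adjusted p = 0.482), DMSO 1 h replicate 1 (-0.25, adjusted p = 0.121) or DMSO 24 h replicate 2 (-0.20, adjusted p = 0.154) and against DMSO 24 h alone (-0.26, adjusted p = 0.116).

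Markers of muscle were also lower at 6 h and 24 h of BRM014, where Smarcd3, a gene of cardiac and skeletal muscle complexes, was low. Of 10 muscle markers 8 had counts, and Myh6 and Myh7 were listed at 0. Their summed level was 30.9 to 31.4 CPM at 6 h and 10.9 to 11.8 CPM at 24 h of BRM014, against 51.3 to 58.9 CPM with DMSO 1 h and 47.5 to 55.6 CPM with DMSO 24 h. In the second batch it was 8.43 to 9.15 CPM with BRM014 and 29.7 to 38.3 CPM with DMSO. The muscle sum did not follow Smarcd3 everywhere. With the analog at 24 h it was 24.6 to 28.7 CPM, where Smarcd3 was not called against DMSO. From DMSO 1 h to DMSO 24 h it did not rise, while mean Smarcd3 went from 14.3 to 19.7 CPM. Fibroblast markers (5 of 8 with counts, with Col1a2, Col3a1 and Pdgfra at 0) also moved, at 1.40 to 2.03 CPM with BRM014 and 8.21 to 9.76 CPM with DMSO at 24 h in the first batch. They did not follow Smarcd3 everywhere, with 11.4 to 13.1 CPM with BRM014 and 11.3 to 12.2 CPM with DMSO in Snf2hko cells, and with 10.6 to 13.1 CPM 6 h after washout, where Smarcd3 was low. The part of either in the Smarcd3 result was not tested. In bulk RNA, fewer cells of a type and less RNA per cell cannot be told apart.

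The inactive analog was compared with BRM014 at the matched dose and at both matched times, for 9 genes at each, with p adjusted over all genes. At 1 h none differed (0 at an unadjusted p under 0.05 and 0.16% of genes called), and DESeq2 also called none. The widest 1 h interval outside Dpf3 was that of Smarcd3 (0.12, -0.20 to 0.43). At 24 h 6 members differed, where 35.4% of genes were called. Smarcd3 had 5.08 and 5.84 CPM with BRM014, against 17.4 and 14.7 CPM with the analog (-1.56 ± 0.17, adjusted p = 2.98e-08). Smarcc2 had 50.6 and 47.5 CPM against 39.2 and 33.8 CPM (0.43 ± 0.10, adjusted p = 0.000946), and Smarcc1 had 504 and 534 CPM against 418 and 405 CPM (0.33 ± 0.09, adjusted p = 0.00353). None of these 3 pairs of groups overlapped.

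Smarcd2 also differed, with 85.3 and 89.3 CPM with BRM014 against 103 and 106 CPM with the analog (-0.26 ± 0.07, adjusted p = 0.00375). Arid1b had 112 and 125 CPM with BRM014 against 103 and 99.7 CPM with the analog (0.23 ± 0.08, adjusted p = 0.0217). The Arid1b call was lost without BRM014 24 h replicate 2 (0.15, adjusted p = 0.27) or without either analog replicate (adjusted p = 0.0595 without replicate 1 and 0.161 without replicate 2), and the Smarcc2 call without analog replicate 2 (0.31, adjusted p = 0.0521). Dpf3 was called on 3 counts with BRM014 (adjusted p = 0.0286), and the call was lost in each of the 4 fits that left out 1 compared library (adjusted p = 0.072 to 0.168) and under DESeq2 (adjusted p = 0.0834). No difference was detected for Smarca2 (0.15, interval -0.13 to 0.43), Smarcd1 (0.10, -0.04 to 0.25) or Dpf1 (-0.20, -0.41 to 0.00).

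Set against DMSO, few members were called with the analog. At 1 h 0 of 9 members were called, with 1 at an unadjusted p under 0.05 (Smarcd1, 0.16), 0 called by DESeq2 and 0.184% of genes called. At 24 h 1 of 9 was called, beside 18.4% of genes. Smarcd1 had 147 and 144 CPM with the analog, against 162 and 185 CPM with DMSO (-0.25 ± 0.07, adjusted p = 0.0113), a call lost without DMSO 24 h replicate 2 (-0.15, adjusted p = 0.23) or analog replicate 2 (-0.23, adjusted p = 0.101) and in a fit of those 4 libraries alone (adjusted p = 0.12). Arid1b was not called, but its analog libraries (103 and 99.7 CPM) lay above both DMSO 24 h libraries (81.2 and 99.1 CPM). Without DMSO 24 h replicate 2 (99.1 CPM) the Arid1b log2 difference was 0.33. That difference rested on the lower DMSO library, as both analog libraries lay close to replicate 2. A rise was not shown to be particular to BRM014. Smarcd3 with the analog was at -0.30 (interval -0.60 to 0.00, adjusted p = 0.17), while the muscle markers summed to 24.6 to 28.7 CPM. This comparison and the previous one share the analog libraries.

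After washout Smarcd3 moved back towards its DMSO level, while Arid1b and Smarcc2 came to lie below theirs. Smarcd3 had 6.65 and 8.64 CPM 6 h after washout and 16.9 and 15.2 CPM 24 h after it, against 5.08 and 5.84 CPM at 24 h of BRM014 and 22.0 and 17.3 CPM with DMSO 24 h. At 6 h it was still -1.37 ± 0.16 below DMSO 24 h (adjusted p = 1.03e-07). At 24 h it was 1.56 ± 0.17 above BRM014 (adjusted p = 1.65e-08) and -0.29 from DMSO (interval -0.59 to 0.01, adjusted p = 0.185). The 6 h difference from BRM014 (0.49, adjusted p = 0.0326) was lost without BRM014 24 h replicate 1 (0.38, adjusted p = 0.202), BRM014 24 h replicate 2 (0.58, adjusted p = 0.0553) or washout 6 h replicate 2 (0.29, adjusted p = 0.323). The summed muscle markers were 20.9 to 25.6 CPM at 6 h and 37.5 to 42.1 CPM at 24 h of washout, and their part was not tested.

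Arid1b, the large BAF subunit, was lower after washout than with DMSO. It had 57.0 and 57.4 CPM 6 h after washout and 64.5 and 59.8 CPM 24 h after it, against 112 and 125 CPM at 24 h of BRM014 and 81.2 and 99.1 CPM with DMSO 24 h. The 4 washout libraries were the lowest Arid1b values of the first batch. Relative to BRM014 it fell by 1.05 on the log2 scale at 6 h (adjusted p = 6.62e-12) and by 0.93 at 24 h (adjusted p = 6.99e-11). Relative to DMSO 24 h it fell by 0.65 at 6 h (adjusted p = 1.63e-07) and by 0.53 at 24 h (adjusted p = 1.59e-05), calls kept in every fit that left out 1 library. The labels give no washed DMSO group and no DMSO group later than 24 h. Handling, time in culture and loss of BRM014 therefore cannot be told apart. The neural markers summed to 136 to 144 CPM 6 h and 54.6 to 54.8 CPM 24 h after washout, against 46.1 to 46.9 CPM with BRM014 and 60.7 to 61.1 CPM with DMSO 24 h, and their part in the Arid1b and Smarcc2 results was not tested.

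Smarcc2 had 33.8 and 37.0 CPM 6 h after washout and 24.1 and 26.5 CPM 24 h after it, against 50.6 and 47.5 CPM with BRM014 and 35.1 and 31.9 CPM with DMSO. The 6 h libraries overlapped DMSO and the 24 h libraries lay below it (-0.40 ± 0.10, adjusted p = 0.00632). It did not hold without DMSO 24 h replicate 1 (-0.33, adjusted p = 0.0534) or washout 24 h replicate 1 (-0.34, adjusted p = 0.0718). Relative to BRM014 the change was -0.47 at 6 h (adjusted p = 0.000228) and -0.95 at 24 h (adjusted p = 6.37e-09). Smarcc1 had 358 and 379 CPM 24 h after washout, against 504 and 534 CPM with BRM014 (-0.49 ± 0.09, adjusted p = 4.15e-05) and 403 and 470 CPM with DMSO (-0.24, adjusted p = 0.0534). The difference from DMSO was called by DESeq2 (-0.24, adjusted p = 0.0379) and by edgeR with DESeq2 size factors (-0.24, adjusted p = 0.0489). Without the filter on low counts edgeR also called it (-0.25, adjusted p = 0.00159). It was not called in a fit of the compared libraries alone or with replicate number as a term.

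In all, 4 of 9 members were called between washout and BRM014 at 6 h (48.7% of genes) and 4 of 9 at 24 h (50.4%). Dpf3, with 3 counts at 24 h of BRM014, was the fourth at 6 h (adjusted p = 0.0132). It was not called without BRM014 24 h replicate 1 (adjusted p = 0.109) or by DESeq2 (adjusted p = 0.0544). Against DMSO 24 h, 3 of 9 were called at 6 h (39.8% of genes, 19% lower) and 3 of 9 at 24 h (17.4%, 8.52% lower), all lower. Smarcd2 was the third at 6 h, with 85.8 and 82.0 CPM against 106 and 98.2 CPM with DMSO (-0.28 ± 0.07, adjusted p = 0.00172). Smarcd1 was the third at 24 h, with 146 and 146 CPM against 162 and 185 CPM with DMSO (-0.24, adjusted p = 0.0164). It did not pass without DMSO 24 h replicate 2 (-0.14, adjusted p = 0.294) or either washout 24 h replicate (adjusted p = 0.0682 without replicate 1 and 0.0815 without replicate 2). The washout comparisons share their BRM014 and DMSO libraries, and the washout cells were taken later than the cells of either.

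Smarca2, the gene of the BRM ATPase, was higher 1 h after the washout of a short treatment. It had 19.1 and 17.6 CPM 30 min after washout and 22.2 and 19.8 CPM 1 h after it, against 13.2 and 14.6 CPM at 1 h of BRM014. The 4 washout libraries were the highest Smarca2 values of the first batch, above the 15.7 and 13.5 CPM of DMSO 1 h and the 11.83 and 16.04 CPM of DMSO 24 h. The 1 h difference was 0.60 ± 0.13 (adjusted p = 0.0046), the only member called of 9 beside 3.98% of genes. It was not called without BRM014 1 h replicate 1 (0.53, adjusted p = 0.075) or washout 1 h replicate 1 (0.51, adjusted p = 0.0675). At 30 min of washout 0 of 9 were called with 5.9% of genes called, 3 had an unadjusted p under 0.05, and Smarca2 stood at 0.39 (adjusted p = 0.0714). DESeq2 called 1 there, Smarcc1 (-0.25, adjusted p = 0.0452). Endoderm markers, all 8 with counts, summed to 293 to 306 CPM at 30 min and 332 to 357 CPM at 1 h of washout, against 216 to 220 CPM at 1 h of BRM014. Their part in the Smarca2 result was not tested.

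**Figure D2:**
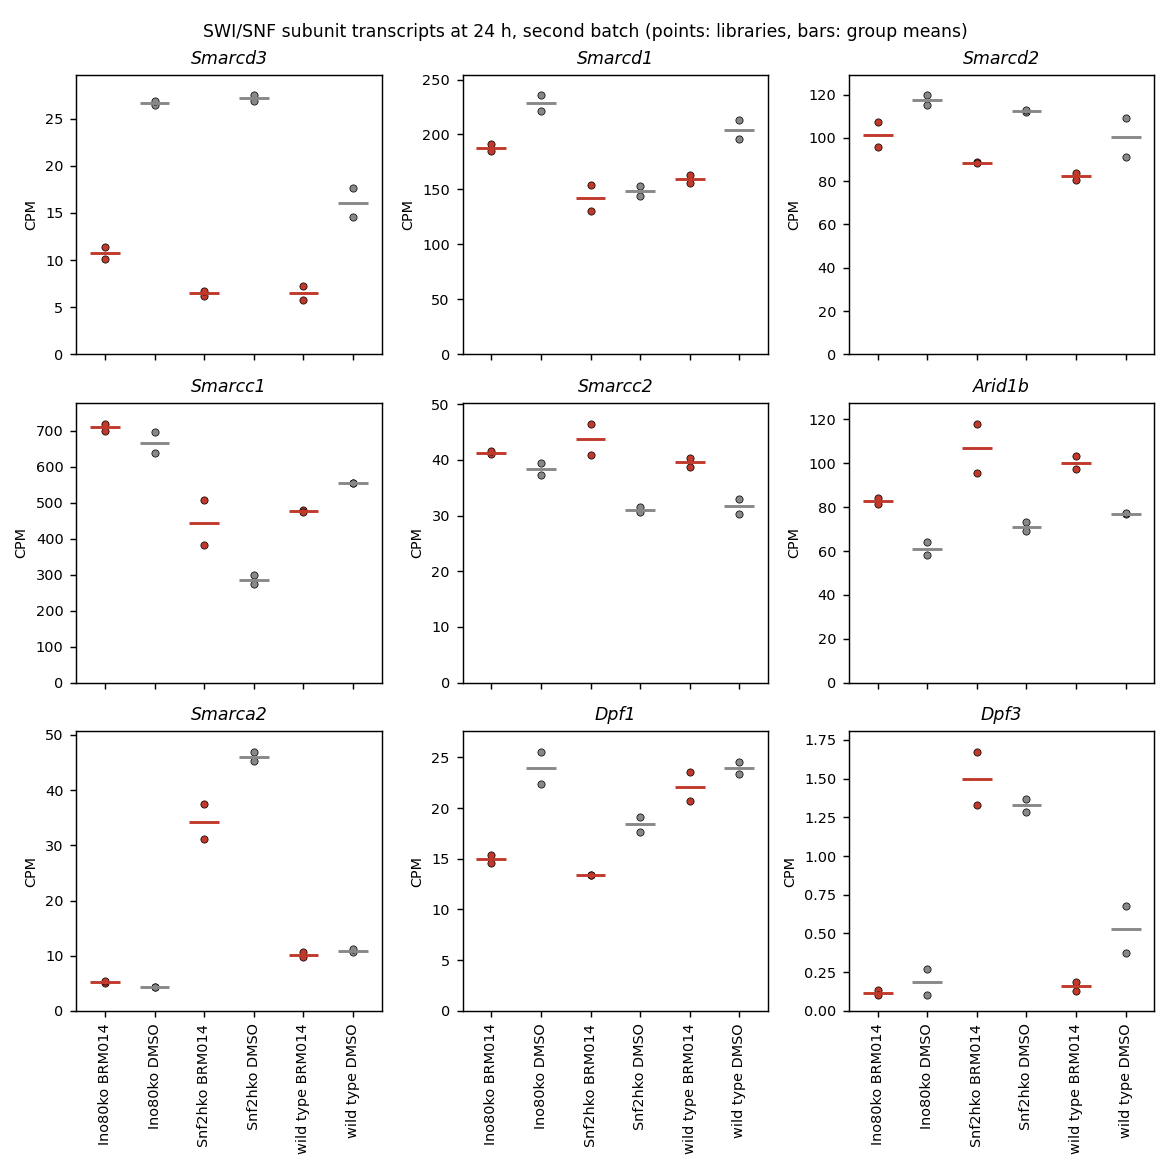
CPM (y axis, from 0) of the 9 members in the 12 libraries of the second batch, all at 24 h. Red points are BRM014, grey points are DMSO, and bars are means of 2. Smarca2 stands at 46.9 and 45.2 CPM in Snf2hko cells with DMSO and near 4.31 CPM in Ino80ko cells with DMSO, and Smarcd3 is lower with BRM014 in all 3 lines.

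The lines differed from wild type without the inhibitor, and in Smarca2 they differed in opposite directions. Snf2hko cells with DMSO had 46.9 and 45.2 CPM, against 10.7 and 11.2 CPM in wild type cells with DMSO (2.07 ± 0.10, adjusted p = 4.05e-12, 4.19-fold). Ino80ko cells with DMSO had 4.31 and 4.42 CPM, against the same wild type libraries (-1.32 ± 0.12, adjusted p = 4.08e-08, 2.498-fold lower). The 3 lines did not overlap. Endoderm markers summed to 685 to 706 CPM in Snf2hko and 68.1 to 73.8 CPM in Ino80ko cells with DMSO, against 144 to 150 CPM in wild type cells, and their part was not tested.

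Both knockout lines had more Smarcd3. It had 26.4 and 26.9 CPM in Ino80ko and 26.9 and 27.5 CPM in Snf2hko cells with DMSO, against 17.6 and 14.6 CPM in wild type cells. The Ino80ko difference was 0.73 ± 0.11 (adjusted p = 2.66e-05) and the Snf2hko difference 0.75 ± 0.11 (adjusted p = 1.08e-05). These comparisons share the 2 wild type libraries, so they are not independent. The muscle markers summed to 73.8 to 78.5 CPM in Ino80ko and 48.2 to 51.9 CPM in Snf2hko cells, against 29.7 to 38.3 CPM in wild type cells, and their part was not tested.

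Smarcc1, the scaffold of the stem cell complex, was lower in Snf2hko cells with DMSO, at 298 and 275 CPM against 554 and 555 CPM in wild type cells (-0.96 ± 0.09, adjusted p = 5.11e-08). In Ino80ko cells it had 696 and 637 CPM (0.27, adjusted p = 0.0231). Smarcd1 followed the same order, with 144 and 153 CPM in Snf2hko cells against 213 and 196 CPM in wild type cells (-0.47 ± 0.08, adjusted p = 3.56e-05). In Ino80ko cells Smarcd1 had 236 and 222 CPM (0.17, adjusted p = 0.0808). The Ino80ko call of Smarcc1 was lost in 3 of 4 fits without 1 compared library, namely wild type DMSO replicate 3 (adjusted p = 0.0935), wild type DMSO replicate 4 (0.0973) and Ino80ko DMSO replicate 1 (0.168).

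The count was 7 of 9 members for Ino80ko against wild type (4 higher, 3 lower), where 45% of genes were called (22.1% higher and 22.9% lower), and 6 of 9 for Snf2hko (3 higher, 3 lower), where 56.5% were (28.9% higher and 27.7% lower). Arid1b had 63.9 and 58.0 CPM in Ino80ko cells against 77.0 and 77.2 CPM in wild type cells (-0.34, adjusted p = 0.00384), lost without Ino80ko DMSO replicate 2 (-0.26, adjusted p = 0.0658). Smarcc2 (0.28, adjusted p = 0.0111) and Smarcd2 (0.23, adjusted p = 0.0229) were higher in Ino80ko cells. Both calls were lost without wild type DMSO replicate 4 (Smarcc2 adjusted p = 0.0944, Smarcd2 0.313) or Ino80ko DMSO replicate 1 (Smarcc2 0.0979, Smarcd2 0.126). Dpf1 had 19.1 and 17.6 CPM in Snf2hko cells against 24.6 and 23.4 CPM in wild type cells (-0.39, adjusted p = 0.00225). Dpf3 had 15 counts in Ino80ko and 115 in Snf2hko cells against 42 in wild type cells, ratios of 0.363 (0.187 to 0.668) and 2.61 (1.82 to 3.81). Its calls in the fit (adjusted p = 0.0231 and 0.00467) were lost for Ino80ko without wild type DMSO replicate 3 (0.213) or Ino80ko DMSO replicate 1 (0.218), and for Snf2hko without wild type DMSO replicate 4 (0.0677).

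BRM014 lowered Smarcd3 in both knockout lines as well. Ino80ko cells had 10.1 and 11.3 CPM with BRM014 against 26.4 and 26.9 CPM with DMSO (-1.31 ± 0.12, adjusted p = 1.82e-08). Snf2hko cells had 6.21 and 6.71 CPM with BRM014 against 26.9 and 27.5 CPM with DMSO (-2.06 ± 0.12, adjusted p = 4.18e-11, 4.18-fold lower). The Snf2hko fall was larger than that of second-batch wild type cells by -0.79 ± 0.18 on the log2 scale (interaction, adjusted p = 0.00203). The Ino80ko fall was not shown to differ from that of the same wild type cells (-0.04, interval -0.40 to 0.33). With BRM014, Snf2hko and these wild type cells had overlapping Smarcd3 levels (7.25 and 5.82 CPM in wild type cells) and different ones with DMSO. Wild type cells of the first batch were not in these tests. They fell further than those of the second, with 5.08 and 5.84 CPM with BRM014 against 22.0 and 17.3 CPM with DMSO. That fall was not tested against the Snf2hko fall. The muscle markers summed to 12.6 to 14.4 CPM with BRM014 in Ino80ko and 9.93 to 10.9 CPM in Snf2hko cells.

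Smarcc1 responded to BRM014 in Snf2hko cells by a different amount than in wild type cells. It had 506 and 382 CPM with BRM014 against 298 and 275 CPM with DMSO in Snf2hko cells (0.64 ± 0.09, adjusted p = 9.4e-06), and 479 and 473 CPM against 554 and 555 CPM in wild type cells. The interaction was 0.86 ± 0.13 (adjusted p = 5.97e-05), kept without any 1 of the compared libraries. That test used wild type cells of the second batch only. Wild type cells of the first batch went the other way, with 504 and 534 CPM with BRM014 against 403 and 470 CPM with DMSO. The 2 Snf2hko BRM014 libraries themselves differed by more than the pairs around them. In Ino80ko cells Smarcc1 had 698 and 719 CPM with BRM014 against 696 and 637 CPM with DMSO (0.09, interval -0.11 to 0.28).

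Arid1b rose with BRM014 in each line, at 81.2 and 84.0 CPM against 63.9 and 58.0 CPM with DMSO in Ino80ko cells (0.44 ± 0.09, adjusted p = 0.000384). In Snf2hko cells it had 118 and 95.7 CPM with BRM014 against 69.0 and 73.1 CPM with DMSO (0.59 ± 0.09, adjusted p = 8.92e-06). Neither interaction was called (0.06 for Ino80ko, interval -0.20 to 0.32, and 0.22 for Snf2hko, interval -0.04 to 0.47). Smarcc2 rose in Snf2hko cells (46.5 and 40.9 CPM with BRM014 against 30.6 and 31.5 CPM with DMSO, 0.50 ± 0.08, adjusted p = 5.13e-05). In Ino80ko cells it had 41.0 and 41.5 CPM with BRM014 against 39.5 and 37.2 CPM with DMSO (0.11, interval -0.07 to 0.28), and the difference from wild type was not called (-0.21, adjusted p = 0.308).

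Dpf1, a neural BAF45 gene, fell with BRM014 in both knockout lines. It had 15.4 and 14.6 CPM with BRM014 against 25.5 and 22.3 CPM with DMSO in Ino80ko cells (-0.68 ± 0.10, adjusted p = 1.73e-05). In Snf2hko cells it had 13.4 and 13.4 CPM against 19.1 and 17.6 CPM (-0.45 ± 0.10, adjusted p = 0.000971), and in wild type cells of that batch 23.5 and 20.7 CPM against 24.6 and 23.4 CPM (-0.11, interval -0.32 to 0.10). The Ino80ko interaction was -0.56 ± 0.14 (adjusted p = 0.0159), lost without Ino80ko DMSO replicate 1 (-0.47, adjusted p = 0.106), wild type BRM014 replicate 3 (-0.46, adjusted p = 0.104) or Ino80ko BRM014 replicate 2 (-0.53, adjusted p = 0.0657). The Snf2hko interaction was not called (-0.34, adjusted p = 0.0798). The neural markers summed to 66.2 to 69.2 CPM with BRM014 and 81.1 to 84.4 CPM with DMSO in Ino80ko cells, and to 57.7 to 63.1 CPM and 87.8 to 91.6 CPM in Snf2hko cells. In wild type cells of that batch, where Dpf1 was not called, they summed to 46.2 to 46.6 CPM with BRM014 and 77.4 to 77.8 CPM with DMSO. Their part in the Dpf1 result was not tested.

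In all, BRM014 called 5 of 9 members in Ino80ko cells, beside 44.5% of genes, and 7 of 9 in Snf2hko cells, beside 56.9%. Smarca2 fell in Snf2hko cells (37.5 and 31.1 CPM with BRM014 against 46.9 and 45.2 CPM with DMSO, -0.42 ± 0.09, adjusted p = 0.000861), while the endoderm markers there summed to 1048 to 1204 CPM with BRM014 and 685 to 706 CPM with DMSO. Smarcd2 fell in Snf2hko cells (-0.34 ± 0.08, adjusted p = 0.00139) and in Ino80ko cells (-0.21 ± 0.08, adjusted p = 0.0368). The Ino80ko call of Smarcd2 was lost without Ino80ko DMSO replicate 1 (-0.17, adjusted p = 0.212), Ino80ko DMSO replicate 2 (-0.23, adjusted p = 0.0805) or Ino80ko BRM014 replicate 2 (-0.12, adjusted p = 0.364). Smarcd1 fell in Ino80ko cells (-0.28 ± 0.08, adjusted p = 0.0048), lost without Ino80ko DMSO replicate 1 (-0.23, adjusted p = 0.0713) or Ino80ko BRM014 replicate 2 (-0.25, adjusted p = 0.0507).

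As interactions, 1 of 9 members was called for Ino80ko (9.03% of genes) and 4 of 9 for Snf2hko (32.6%). Beside Smarcc1 and Smarcd3, the Snf2hko interaction was called for Smarcd1 (0.30, adjusted p = 0.0376) and Dpf3 (1.96, adjusted p = 0.0275). Leaving out 1 compared library took away the Smarcd1 call in 6 of 8 fits, all but those without wild type DMSO replicate 4 or Snf2hko BRM014 replicate 2 (adjusted p = 0.0606 to 0.25). It took away the Dpf3 call in 5 of 8 fits, those without wild type DMSO replicate 3, either Snf2hko DMSO replicate, wild type BRM014 replicate 3 or Snf2hko BRM014 replicate 1 (adjusted p = 0.0593 to 0.167).

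**Figure D3:**
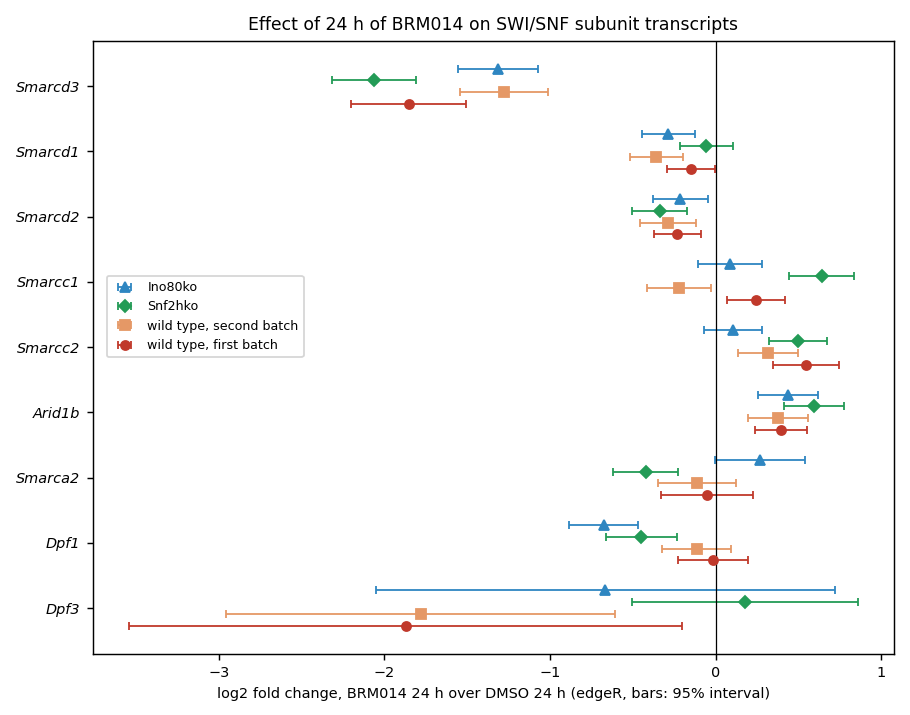
Log2 fold change (x axis) of BRM014 over DMSO at 24 h for each member in Ino80ko, Snf2hko and wild type cells of each batch, from edgeR, with 95% intervals as bars. Smarcd3 lies left of 0 in all 4 settings (-1.31, -2.06, -1.28 and -1.85), Arid1b lies right of 0 in all 4, and Smarcc1 lies on either side.

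Because paralogs fill a shared position, their ratio within a library was also tested over the 16 libraries with BRM014 or DMSO for 24 h. An exact two-sided permutation test within the 4 settings (Ino80ko, Snf2hko and wild type in each batch) has 1296 arrangements and a smallest p of 0.00154, and 7 of 8 ratios could be tested. Smarcd3 per Smarcd1, in counts per kilobase, was 0.0266 to 0.0482 in the 8 BRM014 libraries and 0.0586 to 0.147 in the 8 DMSO libraries, which did not overlap. The mean log2 difference was -1.42 (exact permutation, adjusted p = 0.0036), lower in 4 of 4 settings. Smarcd3 per Smarcd2 gave -1.36 (exact permutation, adjusted p = 0.0036), also lower in 4 of 4. Both ratios share Smarcd3 and the same libraries, so they are not independent, and both had the smallest p of the test. In the wild type libraries alone, the difference for Smarcd3 per Smarcd1 was -1.32 (exact permutation, adjusted p = 0.0648). With 36 arrangements that test could not reach an adjusted p under 0.05.

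As a share of the Smarcd family per kilobase, Smarcd3 made up 1.66% with BRM014 against 5.11% with DMSO in wild type cells of the first batch and 2.00% against 3.84% in the second. It made up 2.73% against 5.496% in Ino80ko and 2.07% against 7.23% in Snf2hko cells. The ratio of Smarcd2 to Smarcd1 differed by -0.05 (exact permutation, adjusted p = 0.431), higher in 2 settings and lower in 2.

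Dpf1 per Dpf2, the ubiquitous member of that family, was lower with BRM014 in 4 of 4 settings (-0.41, exact permutation, adjusted p = 0.0036). The settings were unequal, with -0.73 in Ino80ko and -0.63 in Snf2hko cells against -0.17 and -0.12 in wild type cells. Dpf3 per Dpf2 gave -0.99 (exact permutation, adjusted p = 0.027), near 0 in Snf2hko cells (-0.01) and lost without Ino80ko DMSO replicate 2 (-0.83, adjusted p = 0.0621). Dpf3 per Dpf1 gave -0.58 (exact permutation, adjusted p = 0.178).

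Smarcc2 per Smarcc1 was not called (0.18, exact permutation, adjusted p = 0.134). The log2 difference was 0.30 and 0.54 in wild type cells of the first and second batch, 0.02 in Ino80ko and -0.13 in Snf2hko cells, where both scaffold genes rose. Smarcc2 made up 11.8% of the pair per kilobase with BRM014 against 9.83% with DMSO in the first batch, 10.5% against 7.46% in the second, 7.59% against 7.51% in Ino80ko and 12.3% against 13.3% in Snf2hko cells.

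**Figure D4:**
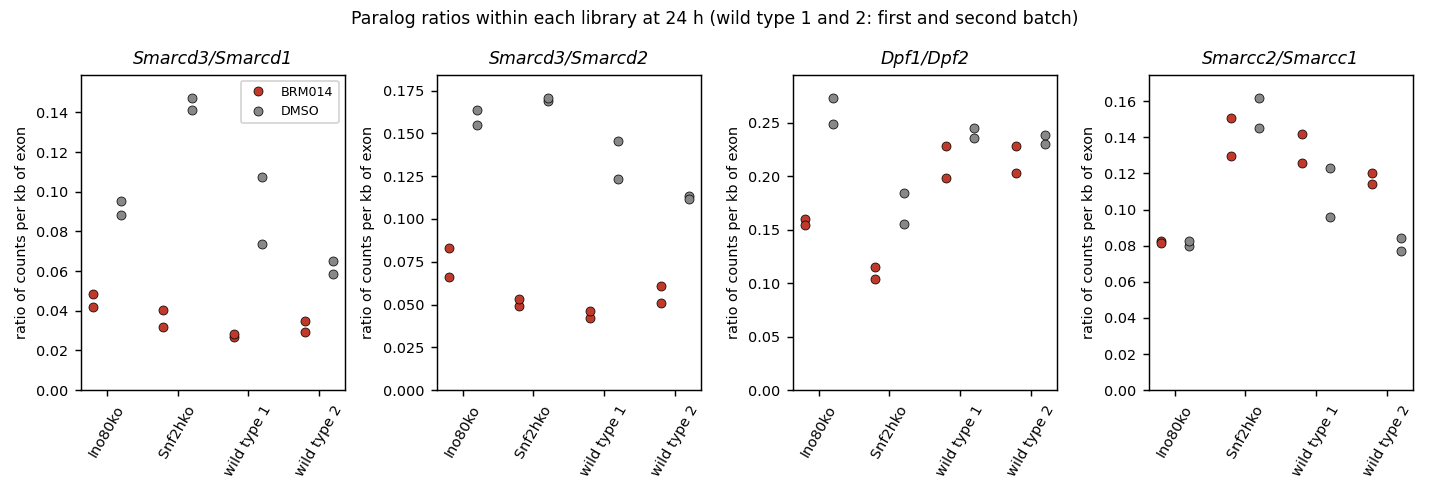
Ratio of counts per kilobase of exon within each library at 24 h (y axis, from 0) for 4 paralog pairs, by line and batch, with BRM014 in red left of DMSO in grey. Smarcd3 per Smarcd1 is 0.0266 to 0.0482 with BRM014 and 0.0586 to 0.147 with DMSO, without overlap, while Smarcc2 per Smarcc1 is mixed in order across the lines.

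Other subunits of the complex gave a comparison list of 21 genes, of which 17 had counts and 16 were tested. After 24 h of BRM014 in wild type cells 5 rose and 2 fell, beside the same 49.6% background, with a median of 0.12. Bcl11b, a zinc finger subunit, had 0.996, 1.12, 0.820 and 0.328 CPM with BRM014 against 3.17, 2.49, 3.37 and 3.13 CPM with DMSO (-1.92 ± 0.26, adjusted p = 1.46e-05). Phf10, a BAF45 relative found in PBAF complexes, rose by 0.39 ± 0.06 and Bcl7c by 0.51 ± 0.08, while Brd9 of the non-canonical complex rose by 0.33 ± 0.07 and Bicral fell by 0.31 on the log2 scale. Dpf2 was at 0.08 (interval -0.05 to 0.21) and Ss18l1, which replaces Ss18 in neurons, at 0.13 (-0.09 to 0.36). Actl6a, the non-neural alternative to Actl6b, rose by 0.15 ± 0.06 (edgeR adjusted p = 0.0444), and Actl6b was too low to test. Arid2, Ss18 and Bcl7a were listed at 0.

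Ranked by group mean over the 13 groups of the first batch, most neighbours overlapped, from 7 of 12 neighbouring pairs for Arid1b to 11 of 12 for Smarcd2. For Smarcd3 the order began with BRM014 24 h, washout 6 h and BRM014 6 h, with no overlap between the first 2 or between washout 6 h and BRM014 6 h, and ended with DMSO 24 h, which overlapped the inactive analog at 24 h. For Arid1b it began with washout 6 h and washout 24 h and ended with BRM014 24 h. Smarcd1 and Smarcd2 spanned 0.45 and 0.37 on the log2 scale, against 1.82 for Smarcd3, 1.04 for Arid1b and 0.99 for Smarcc2.

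Over the same 13 group means, the genes with the most similar pattern to Smarcd3 among 8158 candidates were Add3 (Pearson r = 0.978), Rsph1 (0.973) and Gldc (0.972). For Smarcc2 they were Clcn6 (0.952), Sall3 (0.951) and Mcoln1 (0.933), and for Arid1b Nup210 (0.9503), Phka2 (0.928) and Cryz (0.926). Smarca2 was nearest to Col4a2 (0.936), Smarcc1 to Emsy (0.943), Dpf1 to Gen1 (0.844) and Dpf3 to Arc (0.918). Between members the highest values were 0.71 for Smarcd2 with Smarcd3, 0.69 for Smarcc2 with Arid1b and 0.68 for Smarcc1 with Smarcc2, and the lowest was -0.62 for Smarcc2 with Smarcd3. These are descriptions over 13 groups that share libraries and treatments.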

How the data were processed

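The deposited values are raw counts of reads per gene, per the file's header and values, with exonic length beside them. Libraries were stranded total RNA, per the labels' protocols. STAR, bcl2fastq 2.17 and the builds GRCm38 and mm10 come from the submitters' processing notes. Which program counted the reads, with which strand setting and gene annotation, is not given in the sources used here.

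Counts were scaled by TMM and tested with edgeR 4.0.16 (R 4.3.3, limma 3.58.1) by the quasi-likelihood test, with filterByExpr (minimum count 10, total 15) and Benjamini-Hochberg adjustment over all genes tested, called at an adjusted p under 0.05. The 3 models covered 26 libraries of the first batch (12517 genes), 12 of the second (13130 genes) and the 8 wild type 24 h libraries of both with batch as a term (11787 genes). The batch interaction used the same 8 libraries. BRM014 at 30 min was set against DMSO 1 h, and at 3 h and 6 h against the mean of DMSO 1 h and 24 h. Values per kilobase divide CPM by the deposited exonic length. Ratios used counts plus a pseudocount of 0.5 and the exact permutation test, with p adjusted over 7 ratios. Similar genes were the 3 with the highest Pearson r to each member spanning at least 0.5 on the log2 scale. On simulated data for the pooled comparison (11516 genes), 39 of 50 changes of 0.3 and 50 of 50 of 0.6 on the log2 scale were recovered. The simulated libraries had no batch effect and varied less than the pooled data (biological coefficient of variation 9.16%). Changes were placed only in well-counted genes, so recovery in the data may be lower.

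The members and gene lists were chosen with earlier results of these data known. Genes named outside the members were the most similar genes by that rule and, of the other subunits, those of the list. Alternatives were DESeq2 1.42.0 (test and size factors), no filter, a replicate block, the compared libraries alone, another vehicle time, a pseudocount of 2 and leaving out each replicate. Promoters came from a RefSeq table and were trimmed with GENCODE exons. Figures were drawn with matplotlib 3.10.9, and exact tests ran in Python 3.11.15 with numpy 2.4.6.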

Additional observations from a re-analysis of the deposited data

Results flagged for a closer look

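The response to BRM014 at 24 h differed between lines or batches for 6 values, each by a test of the difference itself in edgeR. For Ino80ko against wild type cells, Dpf1 differed by -0.56 on the log2 scale (adjusted p = 0.0159), a call lost in 3 fits without 1 library (adjusted p = 0.0657 to 0.106). For Snf2hko against wild type cells, Smarcc1 differed by 0.86 (adjusted p = 5.97e-05) and Smarcd3 by -0.79 (adjusted p = 0.00203). The same comparison gave 0.30 for Smarcd1 (adjusted p = 0.0376) and 1.96 for Dpf3 (adjusted p = 0.0275), both of which were lost in most fits without 1 library. Between the second and the first batch of wild type cells, Smarcc1 differed by -0.45 (adjusted p = 0.0303), a call lost in 6 of 8 fits without 1 library (adjusted p = 0.0638 to 0.217). The Snf2hko and Ino80ko differences share the 4 wild type libraries of the second batch. For Smarcc1 the Snf2hko difference thus rests on a wild type effect that the first batch did not repeat. For Smarcd3 the wild type fall was larger in the first batch, which the Snf2hko test did not use. In 18 groups of 4 libraries tested for a library far from the others, none was found.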

How the results depend on the processing

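Of 80 called member values, 682 of 789 alternative values stayed called with the same sign, 107 lost the call and 0 changed sign. Of 143 values not called, 28 of 1391 alternatives were called. Numbers of called members moved past 1.5 times as follows. Washout 30 min against BRM014 had 0, with 2 without the filter, 1 by DESeq2 and 0 to 2 when replicates were left out. DMSO 24 h against 1 h had 2, with 0 on the compared libraries and 0 to 1 on leaving out replicates, and washout 1 h had 1, with 0 to 1. BRM014 3 h had 3, with 1 against DMSO 1 h and 1 to 3, and the analog at 24 h had 1, with 0 on the compared libraries and 0 to 1. BRM014 against the analog at 24 h had 6, with 3 to 5, and washout 24 h against DMSO had 3, with 1 on the compared libraries and 1 to 3. BRM014 24 h in the first batch had 5, with 3 on the compared libraries and 4 to 5, as pooled had 5, with 3 in the first batch on its own and 5 to 6. Ino80ko against wild type had 7, with 3 to 6, and BRM014 in Ino80ko had 5, with 3 to 5. The Ino80ko interaction had 1, with 2 without the filter, 2 on the compared libraries and 0 to 1. The Snf2hko interaction had 4, with 2 by DESeq2 and 2 to 5, and the batch difference had 1, with 0 to 1. In wild type libraries alone the ratios were -1.32 (Smarcd3 per Smarcd1), -1.31 (Smarcd3 per Smarcd2), -0.15 (Dpf1 per Dpf2) and -1.71 (Dpf3 per Dpf2), and left-out replicates gave -1.16 to -0.83 for Dpf3 per Dpf2. Replicate numbers did not pair the libraries (21 correlations of -0.08 to 0.07). The replicate block lost 0 of 67 called members, gave 5 pooled, called Smarcc1 in the second batch (-0.22, adjusted p = 0.0148), and took Dpf3 per Dpf2 (-0.99) to an exact permutation adjusted p of 0.082. The causes were not tested. A group left with 1 library was assumed to vary like the others of its fit. Numbers of genes called also moved past 1.5 times: BRM014 30 min 0, up to 43, and 1 h 75, with 17 to 154; analog 1 h 23, with 2 to 80, and 24 h 2306, with 996 to 1296. BRM014 against the analog at 1 h called 20, with 2 to 52, BRM014 3 h 3902, with 2513 to 2542, and DMSO 24 h against 1 h 2320, with 895 to 1202. Washout called 738, with 112 to 1336 (30 min), 498, with 198 to 299 (1 h), and 2181, with 655 to 1420 (24 h against DMSO). The Ino80ko interaction called 1186, with 678 to 775, and the batch difference 408, with 118 to 810. With 2 libraries a group, effects near 0.3 on the log2 scale were often missed in the simulated first batch (15 of 50 recovered), and Dpf3 was limited by its counts.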
